A study of Mus musculus with 9 samples.

Results

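Zfp600 to Zfp999 are numbered mouse genes for zinc finger proteins. The members were taken from the table of read counts as every gene whose symbol is exactly Zfp followed by a number in that range and which had more than 10 reads in each of the 9 embryos. Of 57010 genes in the table, 174 carry such a symbol and 143 met the read minimum. All 143 are protein-coding in the annotation used. They are 143 of the 13680 genes of the table that met the minimum and were tested. The rule describes the family as one of mostly low codon optimality and short mRNA half-life, properties that were not measured here. The share of G or C at the third position of codons, called GC3, was computed from the coding sequences in their place.

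Most of these proteins bind DNA through arrays of C2H2 zinc fingers, in which a pair of cysteines and a pair of histidines hold a zinc ion, and many carry a KRAB domain that recruits the corepressor Trim28 and, through it, enzymes that silence transposable elements. Their genes lie in clusters that arose by duplication, so that neighbours share sequence. Cnot3 is a subunit of the CCR4-NOT complex, which shortens the poly(A) tails of mRNAs, and the codons of an mRNA are among the features known to affect how fast it decays.

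RNA was sequenced from the microdissected cortex of single mouse embryos at E12.5, with 3 control embryos (Ctrl, genotype WT), 3 Cnot3 cKO embryos (cKO) and 3 embryos labelled Cnot3;p53 dcKO (dcKO), in which both Cnot3 and Trp53 are floxed. Emx1-Cre deletes the floxed alleles in radial glia of the dorsal telencephalon and in the cells they produce, so blood, vessels, meninges and microglia in the same tissue keep theirs. Total counts in replicates 1, 2 and 3 were 26455779, 21193798 and 28869816 in Ctrl, 25946075, 24835674 and 25218324 in cKO, and 34196798, 45073349 and 23275370 in dcKO. The comparisons ask how the RNA of the family differs from Ctrl after loss of Cnot3, whether Trp53 is present or deleted too, and how the double mutant differs from the single mutant. Both comparisons with Ctrl use the same 3 Ctrl embryos.

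Levels are counts per 1000000 reads (CPM) with TMM factors, and fold changes are log2 values from edgeR with their standard error (SE). A gene was called at an adjusted p under 0.05 with an absolute log2 fold change above 1. Cnot3, the targeted gene, was at 117.3, 107 and 98.2 CPM in Ctrl, 15, 17.3 and 14.6 in cKO, and 7.33, 48.2 and 19 in dcKO, with means of 107 ± 9.54, 15.6 ± 1.46 and 24.9 ± 21 (SD, n = 3). The cKO and dcKO embryos were all below the Ctrl embryos, and dcKO replicate 2 was the highest of the 6 mutants. The Cnot3 fold change was -2.78 in cKO (SE 0.53, edgeR adjusted p 0.0509) and -2.11 in dcKO (SE 0.52, edgeR adjusted p 0.0529). DESeq2 called it in both, with adjusted p of 1.22e-05 and 0.00119. Without dcKO replicate 2 the dcKO value was -3.03 and without dcKO replicate 3 it was -1.95, and edgeR called it in both of those fits.

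Trp53 was at 237, 254 and 215 CPM in Ctrl, 167, 164 and 167 in cKO, and 15.1, 110.4 and 20.6 in dcKO. It was lowest in dcKO replicates 1 and 3, while dcKO replicate 2 kept a level nearer to the cKO embryos, which were themselves below Ctrl. Its fold change was -0.50 in cKO (SE 0.59, edgeR adjusted p 0.616) and -2.27 in dcKO (SE 0.62, edgeR adjusted p 0.0605), and the dcKO value was -3.72 without replicate 2 and -1.91 without replicate 3, with edgeR calling it in both of these fits. DESeq2 gave no adjusted p for it. With more Cnot3 and more Trp53 than the other dcKO embryos, dcKO replicate 2 is of uncertain genotype. Both genes were nevertheless below every Ctrl embryo in it, and its Trp53 was also below every cKO embryo. Its genotype was not checked further, and the dcKO medians depend on this embryo.

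The dcKO embryos also stood apart from one another in other ways. Mitochondrial genes held 0.663, 0.836 and 0.949% of reads in Ctrl, 0.749, 0.930 and 0.890% in cKO, and 1.57, 1.83 and 0.627% in dcKO. dcKO replicates 1 and 2 were above the other 7 embryos. Emx1, which marks the dorsal telencephalon and whose promoter drives the Cre, was at 119.95, 69.4 and 43.8 CPM in Ctrl, 20.5, 20.4 and 23.7 in cKO, and 7.94, 17.7 and 80.9 in dcKO. It was lower in the cKO embryos and in dcKO replicates 1 and 2 than in Ctrl, and dcKO replicate 3 lay among the Ctrl embryos. The female marker Xist had 0, 2192 and 3713 reads in Ctrl, 2594, 0 and 0 in cKO, and 0, 11590 and 0 in dcKO. Each group thus held embryos with and without Xist reads, and dcKO replicate 2 had the most.

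The members together held 0.369, 0.352 and 0.363% of all reads in Ctrl, 0.317, 0.309 and 0.323% in cKO, and 0.383, 0.469 and 0.296% in dcKO. The cKO embryos were all below Ctrl, whereas dcKO replicates 1 and 2 were above it and dcKO replicate 3 was the lowest of the 9. The summed level of the members was 3979, 3697 and 3774 CPM in Ctrl, 3005, 2857 and 3068 in cKO, and 3638, 5397 and 2849 in dcKO. On this scale dcKO replicate 1 was just below the Ctrl embryos rather than above them. The median member stood at 12.8 CPM in Ctrl and the median gene tested at 27.1 CPM. By chromosome, 31 members lie on chromosome 7, 22 on chromosome 17, 16 on chromosome 8 and 13 on chromosome 2.

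Of the 31 genes that missed the read minimum, 19 had at most 10 reads in each embryo, 10 of them with no read in any. The other 12 passed 10 reads in some embryos. Among these, Zfp951 had 9 to 84 reads, Zfp979 5 to 76, Zfp977 5 to 97 and Zfp819 5 to 58. Just inside the minimum were Zfp982, with 12 reads in its lowest embryo, Zfp677 with 16 and Zfp641 with 20.

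A ratio of each embryo to the mean of the Ctrl embryos was formed for each member, on the log2 scale with 0.5 CPM added to both. Its median over the 143 members was 0.06, -0.08 and 0.02 in Ctrl, -0.17, -0.23 and -0.09 in cKO, and 0.35, 0.78 and -0.25 in dcKO. All cKO embryos were below the Ctrl embryos, replicate 3 only just, and the dcKO embryos fell on both sides of them. Members above every Ctrl embryo numbered 41, 36 and 46 in the cKO embryos (40.7, 39.6 and 40.1% of all genes tested) and 77, 105 and 37 in the dcKO embryos (44.2, 46.2 and 40.8% of all genes). Members below every Ctrl embryo numbered 74, 73 and 60 in cKO (37.9, 39.3 and 39.2% of all genes) and 44, 28 and 78 in dcKO (42.3, 41.6 and 36.2% of all genes). Among the 3 dcKO embryos, replicate 2 was the highest for 88 members and replicate 3 the lowest for 101, where over all genes tested these were the highest and the lowest for 37.6% and 40.3%. Bulk samples cannot tell a lower level of an mRNA in each cell from fewer cells that make it.

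**Figure D1:**
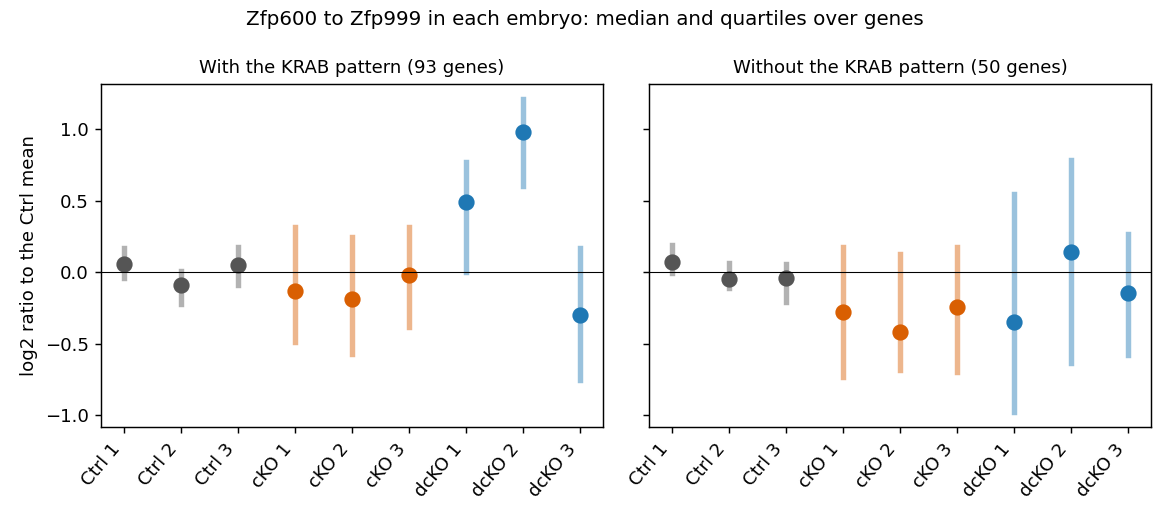
Log2 ratio of each embryo to the Ctrl mean, with points at the median and bars from the lower to the upper quartile over the 93 members with the KRAB pattern (left) and the 50 without it (right). With the pattern, dcKO replicates 1 and 2 sit at 0.49 and 0.98 and dcKO replicate 3 at -0.30, on the other side of the cKO and Ctrl embryos. Their median dcKO fold change of 0.49 turns to -0.12 after the correction for GC content and is 0.15 without dcKO replicate 2.

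In cKO against Ctrl, edgeR called 0 members higher and 0 lower, beside 0.0146% and 0% of all genes tested. At an unadjusted edgeR p under 0.05, 11 members were higher (15.3% of all genes) and 18 lower (11.7% of all genes). DESeq2 called 3 members higher (4.94% of all genes) and 5 lower (3.87% of all genes). The 3 were Zfp641, Zfp663 and Zfp941, and the 5 were Zfp628, Zfp651, Zfp710, Zfp668 and Zfp865. The count of members whose 3 cKO embryos all lay above the 3 Ctrl embryos was 25 (29.2% of all genes), and 52 had all cKO embryos below them (28.0% of all genes). As shares of the members, the 25 are 17.5% and the 52 are 36.4%. Leaving out a dcKO embryo takes none from this comparison but changes the spread that the fit shares between groups, and edgeR then called 1 member higher and 3 lower without dcKO replicate 1 (3.79 and 2.93% of all genes), 2 and 4 without dcKO replicate 2 (5.62 and 2.72%), and 2 and 6 without dcKO replicate 3 (5.28 and 5.49%). DESeq2 called 0 higher without Ctrl replicate 1 (2.59% of all genes) and 1 without cKO replicate 2 (2.59%) or 3 (3.36%). It called 2 lower without Ctrl replicate 1 (1.13% of all genes) or 2 (1.35%) and 3 without cKO replicate 1 (1.67%), 2 (1.92%) or 3 (1.85%). Of the 8 members, Zfp651 and Zfp865 were called by DESeq2 with each of the 9 embryos left out in turn, and each of the others lost its call without at least 1 Ctrl or cKO embryo. After the correction for GC content edgeR called Zfp641 higher and Zfp651, Zfp664, Zfp740, Zfp748, Zfp799, Zfp846 and Zfp866 lower, beside 2.95 and 2.13% of all genes.

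The median member fold change in cKO was -0.22, with quartiles of -0.52 and 0.26, beside 0.01 over all genes tested. It was above 0 in 61 members, or 42.7%, against 50.7% of all genes. Upper-quartile factors moved the median of all genes in cKO to 0.12 and that of the members to -0.12, so that the members remained below all genes. Fold changes above 1 were seen in 3 of the 143 members and under -1 in 6, beside 967 and 828 of the 13680 genes tested. The embryo codes in the labels share a number between 1 cKO embryo and 1 Ctrl embryo in each of 2 cases, and what the number stands for is not stated. Against the Ctrl embryo with the same number, the median member ratio was -0.34 in cKO replicate 2 and 0.05 in cKO replicate 3. The lower median in cKO was thus present in 1 of these 2 pairs, where 46 members were above 0, and absent in the other, where 75 were. Over all genes the pairs had medians of -0.02 and 0.01. cKO replicate 1 shares no number with a Ctrl embryo.

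In dcKO against Ctrl, edgeR called 0 members higher and 0 lower, where all genes also gave 0%. At an unadjusted edgeR p under 0.05, 30 members were higher (18.0% of all genes) and 13 lower (11.2% of all genes), and DESeq2 called 10 higher (4.66% of all genes) and 2 lower (3.79% of all genes). The 10 were Zfp641, Zfp663, Zfp931, Zfp667, Zfp941, Zfp964, Zfp809, Zfp867, Zfp994 and Zfp711, and the 2 were Zfp628 and Zfp651. All 3 dcKO embryos lay above the Ctrl embryos for 26 members (15.6% of all genes) and below them for 10 (11.2% of all genes). The 26 became 72 without dcKO replicate 3 (32.3% of all genes), and the 10 became 20 without Ctrl replicate 3 (16.8%), 29 without dcKO replicate 2 (20.1%) and 23 without dcKO replicate 3 (30.7%). Without dcKO replicate 3, edgeR called 34 members higher (8.46% of all genes) and 10 lower (15.3%), and DESeq2 32 (8.21%) and 10 (15.9%). Without dcKO replicate 2, edgeR called 8 higher (7.16% of all genes) and 2 lower (2.56%).

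DESeq2 called 6 members higher in dcKO without dcKO replicate 1 (1.64% of all genes). Its count of lower members was 5 without dcKO replicate 2 (4.42% of all genes), 1 without dcKO replicate 1 (1.30%) or without cKO replicate 1 (2.98%), 2 (3.03%) or 3 (3.07%), and 0 without Ctrl replicate 1 (1.02%) or 2 (1.12%). Zfp641, Zfp663 and Zfp931 were called by DESeq2 with each of the 9 embryos left out in turn, and each of the other members it called in dcKO lost its call without at least 1 of them. With the correction for GC content, edgeR called Zfp641, Zfp622 and Zfp839 higher and 0 members lower, beside 1.59 and 0.786% of all genes.

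The median member fold change in dcKO was 0.39, with quartiles of -0.12 and 0.69, beside 0.11 over all genes tested, and it turned to -0.09 where each library was first corrected for the GC content of coding sequences. It was above 0 in 101 members, or 70.6%, against 56.9% of all genes. Above 1 were 14 of the 143 members and under -1 were 2, beside 971 and 797 of the 13680 genes tested. The median was 0.64 without dcKO replicate 3 and 0.05 without dcKO replicate 2, so its size rests on replicate 2. dcKO replicate 3 shares the number in its code with Ctrl replicate 3, and against that embryo its median member ratio was -0.25, with 51 members above 0, beside 0.06 over all genes. The other dcKO embryos share no number with an embryo of another group.

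In dcKO against cKO, edgeR called 0 members higher (0% of all genes) and 0 lower (0.0146% of all genes), and DESeq2 called 0 higher (0.0292% of all genes) and 0 lower (0.351% of all genes). At an unadjusted edgeR p under 0.05, 18 members were higher (2.05% of all genes) and 0 lower (2.38% of all genes). All dcKO embryos were above all cKO embryos for 12 members (2.62% of all genes) and below them for 0 (3.63% of all genes). The median member fold change was 0.40, with quartiles of 0.20 and 0.67, beside 0.07 over all genes, and 127 members, or 88.8%, were above 0 against 58.6% of all genes. After the correction for GC content the median was 0.20. Without dcKO replicate 3, edgeR called 32 members higher (2.58% of all genes) and 2 lower (6.45%), and the median was 0.67, and without dcKO replicate 2 it was 0.16. The count above all cKO embryos was 84 without dcKO replicate 3 (25.4% of all genes) and 21 without dcKO replicate 1 (7.74%). The count below them was 4, 3 and 13 without dcKO replicates 1, 2 and 3 (8.86, 6.64 and 27.0% of all genes) and 1 without cKO replicate 2 (5.07%) or 3 (7.003%).

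In the 9 embryos together, 17 members had all 6 mutants above all 3 Ctrl embryos (13.0% of all genes) and 10 had all 6 below them (8.98% of all genes). The 8 of the 17 with the highest mean of both fold changes, and the 5 members with the lowest such mean whether or not groups overlapped, are described next. With 3 embryos on each side, the exact permutation test, two-sided, cannot give a p below 0.1. It gave 0.1 for each of the 8 in both comparisons with Ctrl, since non-overlap chose them. The correction for GC content made the dcKO fold change smaller in 20 of the 32 members chosen by rule, larger in 5 and of the other sign in 7. Of the 11 with a dcKO fold change over 1 in size, 4 stayed over 1. In cKO it was smaller in 18, larger in 12 and of the other sign in 2, and 4 of 8 stayed over 1.

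Zfp641 (ENSMUSG00000022987.13, chromosome 15), a KRAB zinc finger gene with 5 C2H2 motifs, was at 0.815, 1.04 and 1.23 CPM in Ctrl, 3.14, 3.68 and 2.75 in cKO, and 5.33, 2.73 and 2.77 in dcKO. These levels rest on 20, 21 and 34 reads in Ctrl, 86, 99 and 73 in cKO and 192, 107 and 67 in dcKO. All mutants were above Ctrl, dcKO replicate 1 the most, and the mutant groups overlapped. It had the highest fold changes of the family, 1.63 in cKO (SE 0.39, edgeR adjusted p 0.0521) and 1.81 in dcKO (SE 0.39, edgeR adjusted p 0.0502). DESeq2 called it in both, with adjusted p of 0.00433 and 0.0015. The edgeR values miss the threshold narrowly, and with any 1 dcKO embryo left out edgeR called it in cKO, as it did in dcKO without replicate 2 or 3, at 1.98 and 1.96, but not without replicate 1, at 1.42. The values were 1.75 in cKO and 2.27 in dcKO after the correction for GC content.

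Zfp663 (chromosome 2, KRAB) was at 1.51, 3.42 and 3.1 CPM in Ctrl, 5.73, 5.69 and 9.46 in cKO, and 11.4, 7.61 and 6.08 in dcKO. Ctrl replicate 1 was the lowest embryo, cKO replicate 3 and dcKO replicate 1 the highest of their groups. edgeR gave a fold change of 1.38 in cKO (SE 0.41, edgeR adjusted p 0.076, DESeq2 0.0136) and 1.64 in dcKO (SE 0.41, edgeR adjusted p 0.0539, DESeq2 0.00309). Zfp941 (chromosome 7, KRAB) was at 2, 1.24 and 2.99 CPM in Ctrl, 4.89, 3.09 and 5.5 in cKO, and 5.89, 5.01 and 4.76 in dcKO. cKO replicate 2 was only just above the highest Ctrl embryo, and the dcKO embryos lay close together. DESeq2 called Zfp941 in cKO at 1.11 (adjusted p 0.0458) and in dcKO at 1.32 (adjusted p 0.0153), where these fold changes are from edgeR, whose adjusted p were 0.111 and 0.0706. The predicted gene Gm45785 overlaps Zfp941 on the same strand, so its counts are uncertain. Without dcKO replicate 3, edgeR called both genes in dcKO, at 1.83 and 1.38, and without dcKO replicate 2 it called Zfp663, at 1.71. Zfp663 was at 1.10 in cKO and 1.34 in dcKO, and Zfp941 at 0.77 and 0.86, after the correction for GC content.

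Zfp931 (chromosome 2, KRAB) was at 6.93, 6.5 and 6.63 CPM in Ctrl, 11.6, 9.85 and 12.52 in cKO, and 17.7, 19.6 and 12.9 in dcKO. The Ctrl embryos lay close together, the cKO embryos above them and all dcKO embryos above all cKO embryos. The fold change came to 0.76 in cKO (SE 0.25, edgeR adjusted p 0.0948) and 1.32 in dcKO (SE 0.25, edgeR adjusted p 0.0502, DESeq2 6.29e-05). Zfp994 (chromosome 17, KRAB, 17 C2H2 motifs) was at 4.77, 3.52 and 4.94 CPM in Ctrl, 6.49, 5.21 and 5.54 in cKO, and 10.4, 14.7 and 7.62 in dcKO. The cKO embryos were above Ctrl, replicates 2 and 3 only just, and the dcKO embryos were above both groups, with dcKO replicate 2 the highest. Its fold change was 1.31 in dcKO (SE 0.32, edgeR adjusted p 0.0526, DESeq2 0.00261) and 0.38 in cKO (SE 0.32, edgeR adjusted p 0.471). Without dcKO replicate 2 or 3, edgeR called Zfp931 in dcKO at 1.19 and 1.48, and Zfp994 at 1.03 and 1.51, and it called neither without dcKO replicate 1, at 1.28 and 1.34. The correction for GC content lowered the dcKO values to 0.74 for Zfp931 and 0.64 for Zfp994 and the cKO values to 0.48 and 0.22, and Zfp994 in cKO was 0.24 without Ctrl replicate 2.

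Zfp667 (chromosome 7) was at 11, 10.6 and 8.94 CPM in Ctrl, 15.8, 18.2 and 20.9 in cKO, and 34, 20.5 and 16.8 in dcKO. dcKO replicate 1 was the highest embryo, and the other dcKO embryos lay in the range of cKO. Zfp867 (chromosome 11, KRAB) was at 14.7, 16.1 and 14.2 CPM in Ctrl, 24.3, 27 and 25.4 in cKO, and 41.9, 28 and 23.6 in dcKO. Here too dcKO replicate 1 stood above the rest, and dcKO replicate 3 was just below the cKO embryos. Zfp711, an X-linked gene whose human counterpart is mutated in intellectual disability, was at 16.4, 18.5 and 15.7 CPM in Ctrl, 26.5, 26.7 and 25.8 in cKO, and 43.3, 46.6 and 22.8 in dcKO. dcKO replicates 1 and 2 were the highest and dcKO replicate 3 was below every cKO embryo. In dcKO the fold changes of these genes were 1.23, 1.06 and 1.16, with edgeR adjusted p of 0.0511, 0.0507 and 0.0511 and DESeq2 adjusted p of 0.00277, 0.00199 and 0.00292. In cKO they were 0.85, 0.77 and 0.64, below the limit for a call, with edgeR adjusted p of 0.104, 0.0836 and 0.16. Without dcKO replicate 3, edgeR called them in dcKO at 1.42, 1.22 and 1.41, and without dcKO replicate 2 it called Zfp667 at 1.32 and Zfp867 at 1.13, while Zfp711 was at 0.97. Without dcKO replicate 1 the 3 dcKO values were 0.88, 0.79 and 1.04, and after the correction for GC content they were 0.66, 0.56 and 0.51, with cKO values of 0.53, 0.43 and 0.37.

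Zfp964 (chromosome 8, KRAB), chosen after its values were seen because DESeq2 called it in dcKO, was at 3.02, 3.92 and 3.93 CPM in Ctrl, 5.29, 3.57 and 6.37 in cKO, and 8.44, 8.3 and 8.03 in dcKO. The dcKO embryos were almost level and above all others, while cKO overlapped Ctrl. Its fold change in dcKO was 1.19 (SE 0.31, edgeR adjusted p 0.0556, DESeq2 0.00317), which was 0.69 after the correction for GC content, and edgeR called it without dcKO replicate 2, at 1.18, or 3, at 1.21. Zfp809, a KRAB protein known for silencing retroviral DNA in early embryos, was at 6.03, 5.9 and 6.56 CPM in Ctrl, 9.63, 9.41 and 7.92 in cKO, and 14.8, 14.6 and 10.1 in dcKO. Both mutant groups were above Ctrl and all dcKO embryos were above all cKO embryos. The gene had a fold change of 0.54 in cKO (SE 0.26, edgeR adjusted p 0.208) and 1.09 in dcKO (SE 0.26, edgeR adjusted p 0.0511, DESeq2 0.00112), and edgeR called it in dcKO without replicate 2, at 1.01, and without replicate 3, at 1.25. Zfp809 was lowered to 0.21 in cKO and 0.59 in dcKO by the correction for GC content.

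The members with the lowest mean fold change lack the KRAB pattern. Zfp628 (chromosome 7, 16 C2H2 motifs) was at 33.6, 19.9 and 10.2 CPM in Ctrl, 4.41, 5.17 and 3.81 in cKO, and 1.53, 1.92 and 14.1 in dcKO. The Ctrl embryos ranged widely, the cKO embryos and dcKO replicates 1 and 2 were below them, and dcKO replicate 3 lay within their range. edgeR put its fold change at -2.25 in cKO (SE 0.79, edgeR adjusted p 0.109, DESeq2 0.016) and -1.88 in dcKO (SE 0.78, edgeR adjusted p 0.145, DESeq2 0.044). Without dcKO replicate 3 the dcKO value was -3.62, and edgeR called it in both comparisons. It was -1.42 without dcKO replicate 1 and -1.38 without Ctrl replicate 1, and the correction for GC content gave -1.71 in cKO and -1.60 in dcKO. The exact permutation p was 0.1 in cKO and 0.2 in dcKO.

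Zfp651 (chromosome 9) was at 48.5, 42 and 27.6 CPM in Ctrl, 10, 11.3 and 10.9 in cKO, and 4.55, 15.2 and 18.6 in dcKO. Every mutant was below every Ctrl embryo, with dcKO replicate 1 the lowest. Its fold change was -1.87 in cKO (SE 0.45, edgeR adjusted p 0.0521, DESeq2 0.00109) and -1.62 in dcKO (SE 0.44, edgeR adjusted p 0.0607, DESeq2 0.00433), and edgeR called it in cKO with any 1 dcKO embryo left out and in dcKO without replicate 2, at -1.77, or 3, at -1.99, but not without replicate 1, at -1.22. With the correction for GC content it was at -1.46 in cKO and -1.01 in dcKO. Zfp865 (chromosome 7, 20 C2H2 motifs) was at 34.9, 21.2 and 19.1 CPM in Ctrl, 8.65, 11.1 and 10.5 in cKO, and 10.9, 16 and 16.5 in dcKO. Both mutant groups were below Ctrl, which was highest in replicate 1. DESeq2 called Zfp865 in cKO, where the edgeR fold change was -1.31 (SE 0.30, adjusted p 0.0514 by edgeR and 0.001 by DESeq2), and in dcKO the value was -0.79, which was -0.48 without Ctrl replicate 1. Its value was -0.79 in cKO and -0.09 in dcKO after the correction for GC content. Ccdc106 and Gm44973 overlap Zfp865 on the same strand, so its counts are uncertain. With any 1 dcKO embryo left out, edgeR called it in cKO.

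Zfp710 (chromosome 7) was at 59.4, 49.7 and 35.7 CPM in Ctrl, 21.8, 26.1 and 21.2 in cKO, and 15.3, 16.5 and 45 in dcKO. The cKO embryos and dcKO replicates 1 and 2 were below Ctrl, and dcKO replicate 3 was among the Ctrl embryos. edgeR gave a fold change of -1.07 in cKO (SE 0.40, edgeR adjusted p 0.123, DESeq2 0.0492) and -0.92 in dcKO, and without dcKO replicate 3 the dcKO value was -1.60 and edgeR called it in both comparisons. These values became -0.70 and -0.48 after the correction for GC content. Zfp668 (chromosome 7, 16 C2H2 motifs), whose human counterpart acts in DNA repair, was at 32.5, 31.6 and 21.2 CPM in Ctrl, 12.1, 9.93 and 12.9 in cKO, and 11, 26.1 and 18 in dcKO. All 3 cKO embryos were below Ctrl without overlap, and dcKO replicate 2 lay within the Ctrl range. The fold change came to -1.29 in cKO (SE 0.33, edgeR adjusted p 0.0574, DESeq2 0.00365) and -0.63 in dcKO. The correction for GC content brought these to -0.87 and 0.15, and the dcKO value was -0.37 without dcKO replicate 1 and -0.97 without dcKO replicate 2. With any 1 dcKO embryo left out, edgeR called it in cKO. Its end overlaps that of Zfp646 on the opposite strand by 608 bases.

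**Figure D2:**
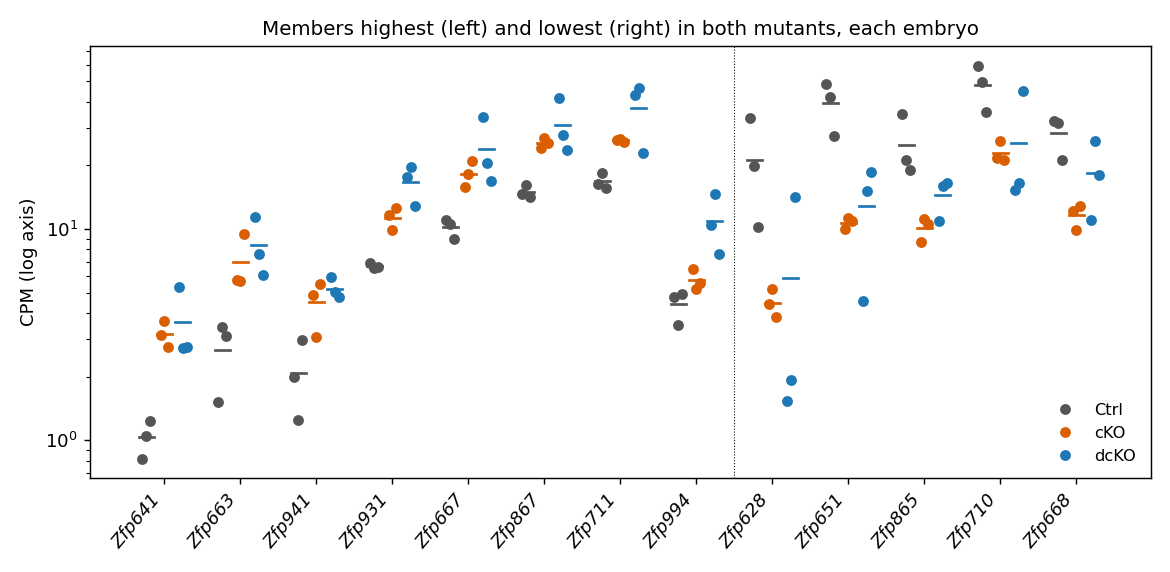
Level (CPM, log axis) of 8 members (left) and 5 members (right), with a point for each embryo and a line at the mean of each group of 3. The 8 have the highest mean of both fold changes against Ctrl among members with all 6 mutants above Ctrl. The 5 have the lowest such mean of all members. On the left the Ctrl embryos lie below all 6 mutants by the way these genes were chosen, and on the right dcKO replicate 3 lies among the Ctrl embryos for Zfp628 and Zfp710.

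Per kilobase of exon, the members with the highest level in Ctrl were Zfp740 at 48.9 CPM per kb, Zfp706 at 45.3, Zfp664 at 39.5, Zfp869 at 32.1 and Zfp637 at 23.0. Zfp740 was at 234, 254 and 259 CPM in Ctrl, 151, 140.5 and 157 in cKO, and 146, 207 and 149 in dcKO. Every mutant was below every Ctrl embryo, and dcKO replicate 2 was the highest mutant. Its fold change was -0.74 in cKO (SE 0.17, edgeR adjusted p 0.0517, DESeq2 0.00377) and -0.57 in dcKO (SE 0.17, edgeR adjusted p 0.0726, DESeq2 0.023), too small for a call. Both were larger in size after the correction for GC content, at -1.04, where edgeR called it, and -0.90. Csad overlaps Zfp740 on the opposite strand by 1476 bases. Zfp706, a small protein that promotes the exit of mouse embryonic stem cells from self-renewal, was at 229, 213 and 235 CPM in Ctrl, 194, 180.4 and 195 in cKO, and 232, 371 and 152 in dcKO. The cKO embryos were below Ctrl, and the dcKO embryos spread from the lowest to the highest of the 9. Its fold change in dcKO was 0.16, and it was -0.23 after the correction for GC content, -0.23 without dcKO replicate 2, 0.42 without dcKO replicate 3 and 0.10 without cKO replicate 3.

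Zfp664 was at 313, 301 and 315 CPM in Ctrl, 178, 155 and 177 in cKO, and 189, 436 and 146 in dcKO. The cKO embryos and dcKO replicates 1 and 3 were well below Ctrl, and dcKO replicate 2 was above all others. The gene had a fold change of -0.87 in cKO (SE 0.34, edgeR adjusted p 0.137) and -0.27 in dcKO, which was -0.09, -0.89 and 0.01 without dcKO replicates 1, 2 and 3. The correction for GC content gave -1.18 in cKO, where edgeR called it, and -0.66 in dcKO. Zfp869 was at 51.8, 48.5 and 52.8 CPM in Ctrl, 40.6, 30.7 and 44.3 in cKO, and 50.3, 88.9 and 31.3 in dcKO. The cKO embryos and dcKO replicate 3 were below Ctrl, dcKO replicate 1 was within its range and dcKO replicate 2 far above it, and the dcKO fold change of 0.16 was -0.46 after the correction for GC content, -0.32 without dcKO replicate 2, 0.45 without dcKO replicate 3 and 0.10 without cKO replicate 3. Zfp637 was at 56.8, 63.6 and 56.3 CPM in Ctrl, 52.8, 50.2 and 48.4 in cKO, and 43.4, 33.6 and 53.6 in dcKO. All mutants were below all Ctrl embryos and dcKO replicate 2 was the lowest, with fold changes of -0.22 in cKO and -0.44 in dcKO, which were -0.12 in cKO with upper-quartile factors and -0.28 in dcKO without dcKO replicate 2.

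Members with a role known from other work differed in direction. Zfp622, a factor in the maturation of the large ribosomal subunit, was at 29.7, 29.3 and 31 CPM in Ctrl, 46.3, 48.5 and 43.3 in cKO, and 46.1, 42.8 and 46.2 in dcKO. The 6 mutants were all above Ctrl and close together. edgeR put its fold change at 0.62 in cKO (SE 0.16, edgeR adjusted p 0.0578, DESeq2 0.00141) and 0.59 in dcKO (SE 0.16, edgeR adjusted p 0.0595, DESeq2 0.00329), below the fold limit. It was 0.83 in cKO and 1.12 in dcKO after the correction for GC content, and edgeR then called it in dcKO. Zfp830, a splicing-related factor needed in early embryos, was at 22.6, 18.1 and 21 CPM in Ctrl, 26.3, 28.4 and 22.1 in cKO, and 29, 22.7 and 26.7 in dcKO. All dcKO embryos were above Ctrl, replicate 2 by a small margin, and cKO overlapped it, with fold changes of 0.32 in cKO and 0.34 in dcKO.

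Zfp703, a transcriptional repressor, was at 37.3, 27.5 and 23 CPM in Ctrl, 16.8, 19 and 13.9 in cKO, and 11.9, 20.7 and 18.5 in dcKO. All mutants were below all Ctrl embryos, which were highest in replicate 1. Its fold change was -0.82 in cKO (SE 0.28, edgeR adjusted p 0.104, DESeq2 0.0359) and -0.78 in dcKO (SE 0.28, edgeR adjusted p 0.107, DESeq2 0.0411). These became -0.29 and -0.16 after the correction for GC content. Zfp746, a repressor that the ubiquitin ligase Parkin targets, was at 50.7, 54.2 and 42.4 CPM in Ctrl, 28.7, 28.7 and 27.8 in cKO, and 24.3, 41.4 and 35.4 in dcKO. All mutants were again below Ctrl, with dcKO replicate 2 closest to it. edgeR gave a fold change of -0.79 in cKO (SE 0.22, edgeR adjusted p 0.0665, DESeq2 0.0122) and -0.54 in dcKO, which were -0.36 and 0.22 after the correction for GC content, and the dcKO value was -0.35 without dcKO replicate 1.

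Zfp609, which works with the cohesin loader and the Integrator complex in neural progenitors, was at 170.3, 163 and 162 CPM in Ctrl, 138, 134 and 136 in cKO, and 119.7, 143 and 129.8 in dcKO. Each mutant was below each Ctrl embryo, with fold changes of -0.28 in cKO (edgeR adjusted p 0.231) and -0.33 in dcKO (edgeR adjusted p 0.146), the latter -0.10 after the correction for GC content. Its relative Zfp608 was at 89.6, 76.3 and 85.3 CPM in Ctrl, 64, 55 and 68.5 in cKO, and 67.4, 93 and 63.3 in dcKO. In cKO all embryos were below Ctrl and dcKO replicate 2 was above it, with fold changes of -0.42 in cKO and -0.17 in dcKO, the latter -0.10, -0.36 and -0.06 without dcKO replicates 1, 2 and 3. Zfp618, a chromatin protein that binds oxidised methylcytosine, was at 53.3, 61.7 and 60.5 CPM in Ctrl, 34.2, 39.8 and 50 in cKO, and 42.1, 73.5 and 46.9 in dcKO. All 3 cKO embryos were below Ctrl and dcKO replicate 2 was the highest of the 9, with fold changes of -0.50 in cKO and -0.11 in dcKO, the latter 0.37 after the correction for GC content, 0.04 without dcKO replicate 1 and -0.40 without dcKO replicate 2.

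Zfp638, which acts in silencing of unintegrated retroviral DNA, was at 114, 98.1 and 106 CPM in Ctrl, 101, 103 and 103 in cKO, and 143, 211 and 70.5 in dcKO. The cKO embryos lay within the Ctrl range, with a fold change of -0.05 that was 0.05 with upper-quartile factors, -0.32 after the correction for GC content, and 0.00 and -0.11 without Ctrl replicates 1 and 2, and in dcKO replicates 1 and 2 were the highest and replicate 3 the lowest of the 9. The dcKO value of 0.41 became -0.29 after the correction for GC content, 0.00 without dcKO replicate 2 and 0.73 without dcKO replicate 3. Zfp644, which recruits the G9a histone methyltransferase, was at 62.8, 50.2 and 64.1 CPM in Ctrl, 74.6, 68.2 and 71 in cKO, and 119.02, 126 and 49.2 in dcKO. The cKO embryos were above Ctrl, dcKO replicates 1 and 2 higher still and dcKO replicate 3 below all others, with fold changes of 0.27 in cKO, which was -0.03 after the correction for GC content, and 0.73 in dcKO. The dcKO value fell to 0.10 after the correction for GC content and 0.51 without dcKO replicate 2, and edgeR called it without dcKO replicate 3 at 1.05. Zfp800, known from pancreas development, was at 15.4, 13.1 and 15.4 CPM in Ctrl, 17.1, 15.4 and 14 in cKO, and 25.7, 35.5 and 14.3 in dcKO. Only dcKO replicates 1 and 2 left the range of the other embryos by a wide margin, with fold changes of 0.08 in cKO, which was -0.17 after the correction for GC content, and 0.78 in dcKO. The dcKO value fell to 0.10 after the correction for GC content and 0.45 without dcKO replicate 2, and edgeR called it without dcKO replicate 3 at 1.06. Zfp932 was at 15, 16.6 and 17.8 CPM in Ctrl, 14.7, 9.74 and 15.5 in cKO, and 22.3, 37.3 and 12.1 in dcKO. dcKO replicate 2 was the highest and cKO replicate 2 the lowest embryo, with fold changes of -0.31 in cKO and 0.54 in dcKO. The cKO value was -0.13 without cKO replicate 2 and -0.51 after the correction for GC content, and the dcKO value -0.24 after the correction, 0.06 without dcKO replicate 2 and 0.85 without dcKO replicate 3.

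Between the mutants, the smallest unadjusted p belonged to Zfp870, Zfp976 and Zfp994, all with the KRAB pattern. Zfp870 (chromosome 17) was at 11.7, 14.8 and 17 CPM in Ctrl, 14.6, 11.2 and 12.4 in cKO, and 27.2, 36 and 15.7 in dcKO. The dcKO embryos were above all cKO embryos, and dcKO replicate 3 lay among the Ctrl embryos. Zfp976 (chromosome 7, 18 C2H2 motifs) was at 3.02, 3.37 and 3.46 CPM in Ctrl, 2.19, 2.53 and 2.9 in cKO, and 4.83, 7.15 and 3.77 in dcKO. In cKO all embryos were below and the dcKO embryos above Ctrl. The fold changes of dcKO against cKO were 1.05 for Zfp870 (SE 0.32, adjusted p 0.889 by edgeR and 0.208 by DESeq2), 1.05 for Zfp976 (SE 0.33, adjusted p 0.889 by edgeR and 0.286 by DESeq2) and 0.92 for Zfp994 (SE 0.32, adjusted p 0.889 by edgeR and 0.351 by DESeq2). Without dcKO replicate 3 they were 1.31, 1.24 and 1.13 and edgeR called all 3, and Zfp870 was called in dcKO against Ctrl at 1.12 as well. Without dcKO replicate 2 they were 0.75, 0.76 and 0.65, and after the correction for GC content 0.86, 0.60 and 0.42. Against Ctrl, Zfp870 in dcKO was at 0.86, and at 0.57 without dcKO replicate 2 and 0.34 after the correction.

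A search of the translated coding sequences for the conserved core of the KRAB box found it in 93 members. A protein without a match may still hold a diverged KRAB domain. Members with the pattern had a median level of 7.82 CPM in Ctrl and those without it 30 CPM. The median fold change with the pattern was -0.04 in cKO and 0.49 in dcKO, with 43 and 78 of 93 above 0. The cKO median was 0.06 with upper-quartile factors, -0.25 after the correction for GC content and -0.18, -0.10 and -0.13 without cKO replicate 3, cKO replicate 2 and Ctrl replicate 2. The dcKO median was -0.12 after the correction, with 39 of 93 above 0, and 0.15 and 0.78 without dcKO replicates 2 and 3. Members without the pattern had medians of -0.34 in cKO and -0.17 in dcKO, with 18 and 23 of 50 above 0, and these were -0.32 and -0.09 after the correction. Their dcKO median was -0.05, -0.26 and -0.08 without dcKO replicates 1, 2 and 3. In dcKO against cKO the medians were 0.57 with the pattern and 0.25 without it, and 85 of 93 and 42 of 50 members were above 0. After the correction these medians were 0.21 and 0.19, and without dcKO replicate 2 they were 0.21 and 0.13, while without dcKO replicate 3 they were 0.87 and 0.27. By embryo, the median ratio of the members with the pattern was 0.49, 0.98 and -0.30 in dcKO, and without it -0.35, 0.14 and -0.14.

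The number of C2H2 motifs varied from 0 to 33 a member, with a median of 11. The 57 members with 12 or more had a median fold change of -0.31 in cKO, 0.48 in dcKO and 0.59 in dcKO against cKO, where 54 of 57 were above 0. After the correction for GC content these were -0.54, -0.14 and 0.25, and without dcKO replicate 2 the dcKO median was -0.05 and that of dcKO against cKO 0.20, while without dcKO replicate 3 they were 0.78 and 0.89. The 28 members with at most 6 motifs had medians of 0.01, 0.27 and 0.23, which were -0.19, 0.12 and 0.19 after the correction. The cKO median of 0.01 was 0.12 with upper-quartile factors, -0.17 and -0.02 without cKO replicates 3 and 1, and -0.04, -0.05 and -0.01 without Ctrl replicates 1, 2 and 3. The other medians were 0.06 and 0.09 without dcKO replicate 2 and 0.37 and 0.35 without dcKO replicate 3. Across the 143 members the motif number had a Spearman correlation of -0.14 with the fold change in cKO, 0.13 in dcKO and 0.45 in dcKO against cKO. These were -0.29, -0.20 and 0.13 after the correction, and the last 2 were -0.11 and 0.09 without dcKO replicate 2 and 0.21 and 0.45 without dcKO replicate 3. The points share the 9 libraries and neighbours share sequence, so members are not independent.

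GC3 had a median of 42.0% over the members, from 22.0 to 84.5%, and of 60.4% over all genes tested with a coding sequence. The median was 36.9% with the KRAB pattern and 59.4% without it. Across the 143 members, GC3 had a Spearman correlation of -0.32 with the fold change in cKO, -0.59 in dcKO and -0.56 in dcKO against cKO. Without dcKO replicate 2 the last 2 were -0.30 and 0.02. Without dcKO replicate 1 the value in dcKO against cKO was -0.34. Over 12083 genes tested the same values were -0.34, -0.53 and -0.33. By embryo, the correlation of GC3 with the member ratio was 0.10, 0.33 and -0.39 in Ctrl, -0.32, -0.20 and -0.39 in cKO, and -0.51, -0.71 and 0.21 in dcKO. The Ctrl embryos alone thus spanned both signs, dcKO replicates 1 and 2 were the most negative and dcKO replicate 3 was positive. GC content also affects how well a fragment is amplified and sequenced, and the part of library preparation in these correlations was not tested. The correction for GC content removes a trend with coding GC whatever its source, a change linked to codons included, so it cannot tell these apart. Across members, the Ctrl level had a correlation of -0.52 with the fold change in cKO, -0.49 in dcKO and -0.00 in dcKO against cKO. Over all genes tested the values were -0.33, -0.26 and 0.12. The Ctrl embryos enter both the level and the fold changes against Ctrl, which by itself favours a negative value. The correction brought the member values to -0.47, -0.27 and 0.35, and the last was 0.15 without dcKO replicate 1 and -0.18 without dcKO replicate 2.

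**Figure D3:**
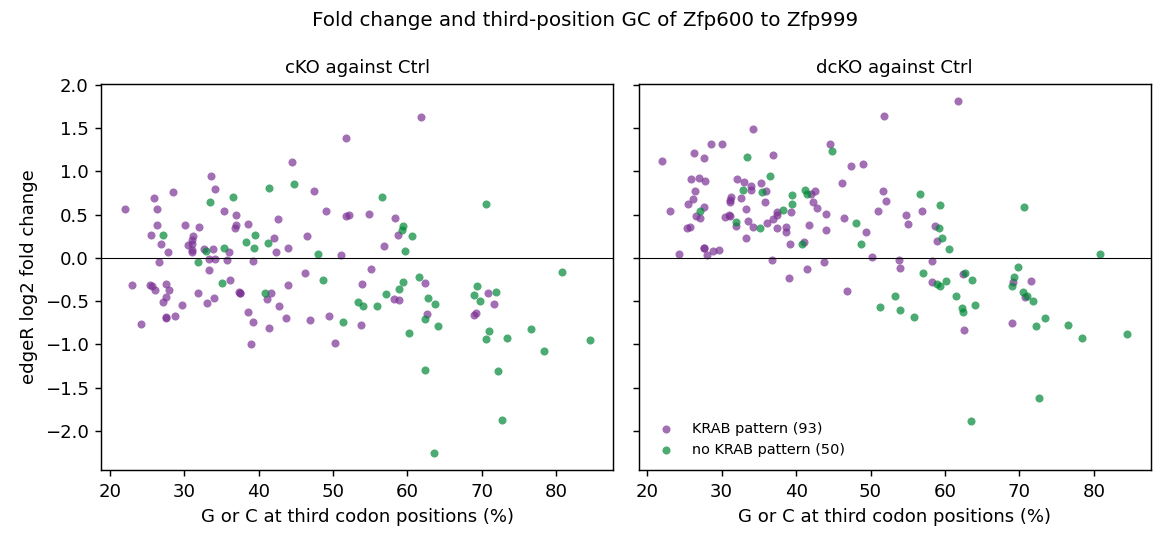
GC3 of each of the 143 members (percent, horizontal axis) against its edgeR log2 fold change (vertical axis) in cKO (left) and dcKO (right), coloured by the KRAB pattern. The Spearman correlation across members is -0.32 in cKO and -0.59 in dcKO, where it is -0.30 without dcKO replicate 2. The dcKO median of all members, 0.39, turns to -0.09 after a correction of each library for GC content.

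The members were split by GC3 into 4 groups of like size, from 22.0 to 33.0%, 33.3 to 42.0%, 42.3 to 58.7% and 58.9 to 84.5%. The median fold change of these groups was 0.07, 0.03, 0.03 and -0.52 in cKO. In dcKO it was 0.61, 0.53, 0.40 and -0.33, and 36 of 36, 33 of 36, 24 of 35 and 8 of 36 members were above 0. In dcKO against cKO it was 0.64, 0.62, 0.29 and 0.17. The other genes tested that fell in the same ranges of GC3, 108, 826, 4336 and 6400 in number, had dcKO medians of 0.61, 0.59, 0.33 and -0.21, close to those of the members. Their cKO medians were 0.05, 0.26, 0.20 and -0.15, above those of the members in all but the lowest group. In dcKO against cKO they were 0.52, 0.32, 0.10 and -0.05, below those of the members in each group. No difference between members and other genes was tested.

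In the same order of these 4 groups, the member medians in dcKO were 0.15, 0.21, 0.17 and -0.41 without dcKO replicate 2, 0.90, 0.84, 0.58 and -0.60 without dcKO replicate 3, and -0.15, -0.16, -0.07 and 0.00 after the correction for GC content. The last was -0.19 without dcKO replicate 1. In dcKO against cKO they were 0.11, 0.19, 0.17 and 0.18 without dcKO replicate 2, 0.98, 0.88, 0.49 and -0.05 without dcKO replicate 3, and 0.13, 0.22, 0.24 and 0.27 after the correction, and the last was 0.33 without dcKO replicate 1. The cKO medians of the first 3 groups ranged from -0.12 to 0.10, from -0.02 to 0.11 and from -0.10 to 0.05 with 1 embryo left out, so that their sign depends on single embryos. After the correction the 4 cKO medians were -0.19, -0.20, -0.30 and -0.35.

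The group lowest in GC3 had median ratios of 0.58, 1.10 and -0.57 in the dcKO embryos, and the other genes in that range 0.60, 1.14 and -0.26. The group highest in GC3 had -0.73, -0.42 and -0.11, beside -0.46, -0.59 and 0.12 for the other genes. dcKO replicates 1 and 2 were high at low GC3 and low at high GC3, and replicate 3 had negative medians in both groups of members. The KRAB pattern and GC3 overlap as features. With GC3 under the member median, the dcKO median was 0.53 in 59 members with the pattern and 0.73 in 13 without it. With GC3 over the member median it was 0.38 in 34 members with the pattern and -0.33 in 37 without it. These 4 dcKO medians were 0.14, 0.42, 0.16 and -0.43 without dcKO replicate 2, 0.85, 1.00, 0.60 and -0.48 without dcKO replicate 3, and -0.19, -0.00, 0.12 and -0.10 after the correction for GC content. In cKO the medians were -0.02, 0.17, -0.16 and -0.50, in the same order, and -0.30, -0.12, -0.24 and -0.40 after the correction. Upper-quartile factors brought the first to 0.09, and with 1 embryo left out the first 3 ranged from -0.14 to -0.02, from 0.13 to 0.26 and from -0.21 to -0.06. Of the 18 members lower in cKO at an unadjusted edgeR p under 0.05, 16 were among the 37 without the pattern and with GC3 over the member median, or 43.2% of these, and 1 was among the 34 with the pattern, or 2.94%. Of other genes with GC3 in the same range, 12.3% were lower in cKO at this p, and 11.7% of all genes. No difference between these shares was tested.

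To show what GC3 looks like in these genes, 1 finger is printed for each of the 3 lowest and 3 highest in GC3 among the named members that have a finger with the common linker, of which there are 18. Each is the first such finger, 26 codons of exonic coding sequence from GRCm38 with GENCODE M21, read 5′ to 3′ on the coding strand, with the third base of each codon in capitals. The low ones are from Zfp932 (chr5:110008837-110008914, plus strand, GC3 of the gene 23.0%), Zfp976 (chr7:42613857-42613934, minus strand, 26.1%) and Zfp931 (chr2:178068202-178068279, minus strand, 28.5%). The high ones are from Zfp628 (chr7:4918886-4918963, plus strand, 63.5%), Zfp746 (chr6:48064159-48064236, minus strand, 64.1%) and Zfp865 (chr7:5030071-5030148, plus strand, 72.2%). Of 26 capitals, 5, 5 and 7 are G or C in the first 3 and 17, 17 and 23 in the last 3.
Zfp932: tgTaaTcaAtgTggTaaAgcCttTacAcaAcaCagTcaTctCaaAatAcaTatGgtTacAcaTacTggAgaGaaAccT
Zfp976: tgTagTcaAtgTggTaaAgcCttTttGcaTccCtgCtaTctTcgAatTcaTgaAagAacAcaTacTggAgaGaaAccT
Zfp931: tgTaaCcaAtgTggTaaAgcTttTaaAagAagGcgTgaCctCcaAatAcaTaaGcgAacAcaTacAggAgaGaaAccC
Zfp628: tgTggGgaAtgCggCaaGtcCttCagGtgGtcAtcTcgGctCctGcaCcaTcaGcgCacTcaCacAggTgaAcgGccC
Zfp746: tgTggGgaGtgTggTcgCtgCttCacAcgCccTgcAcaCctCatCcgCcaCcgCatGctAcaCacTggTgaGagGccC
Zfp865: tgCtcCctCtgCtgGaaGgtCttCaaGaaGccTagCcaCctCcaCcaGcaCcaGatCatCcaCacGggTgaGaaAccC

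By position, 71 members lie in 14 clusters, where a cluster is at least 3 members with gaps of at most 500 kb, and 72 lie outside them. The largest, 14 members from Zfp677 to Zfp945 over 1483 kb of chromosome 17, all with the KRAB pattern, has a median GC3 of 32.0%. Its median fold change was 0.11 in cKO, from -0.52 to 0.95, and 0.48 in dcKO, from 0.23 to 1.31, with 9 and 14 of 14 above 0. After the correction for GC content the medians were -0.04 and -0.18, with 7 and 5 of 14 above 0. The cKO median was 0.22 with upper-quartile factors, 0.23 and -0.01 without Ctrl replicates 1 and 2, and 0.05, 0.17 and 0.02 without cKO replicates 1, 2 and 3, and the dcKO median was 0.79 without dcKO replicate 3. By embryo its median ratio was 0.16, -0.13 and -0.06 in Ctrl, 0.02, -0.16 and 0.09 in cKO, and 0.66, 0.83 and -0.14 in dcKO. dcKO replicates 1 and 2 lay above Ctrl and the other embryos did not. The 9 members from Zfp771 to Zfp646 over 642 kb of chromosome 7, 4 with the KRAB pattern, have a median GC3 of 62.4%. There 0 of 9 were above 0 in either comparison, with medians of -0.65 in cKO, from -1.29 to -0.29, and -0.58 in dcKO, from -0.88 to -0.19. The correction turned these medians to -0.41 and 0.15, with 1 and 5 of 9 above 0, and without dcKO replicate 1 the dcKO median was -0.35. Its median ratio was 0.19, 0.03 and -0.25 in Ctrl, -0.56, -0.64 and -0.69 in cKO, and -1.01, -0.35 and -0.17 in dcKO. All 3 cKO embryos were below Ctrl, and dcKO replicate 3 was within the Ctrl range.

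The 6 members from Zfp871 to Zfp763 on chromosome 17, Zfp870 among them, had medians of -0.43 in cKO, 0.35 in dcKO and 0.87 in dcKO against cKO, where all 6 were above 0 and edgeR called 0 of them. The clusters from Zfp626 to Zfp850 and from Zfp712 to Zfp738 had medians of 0.92 and 0.88 in dcKO against cKO, and 0.16 and 0.15 without dcKO replicate 2. After the correction for GC content these medians were 0.44 and 0.43. No difference between mutants was tested for a cluster. The median ratio of the 6 members was 0.10, 1.01 and -0.75 in the dcKO embryos, so that replicates 2 and 3 lay on opposite sides of Ctrl. The dcKO median was -0.27 and 0.66 without dcKO replicates 2 and 3 and -0.32 after the correction for GC content, which brought the cKO median to -0.74. That of dcKO against cKO was 0.20 without dcKO replicate 2 and 0.55 after the correction. The 3 members from Zfp781 to Zfp938 on chromosome 10 had a median of -0.54 in cKO, with 0 of 3 above 0, and 0.30 in dcKO, with 3 of 3 above 0. The cKO median was -0.27 without Ctrl replicate 1, -0.30 without cKO replicate 2 and -0.82 after the correction. Their median ratio was -0.15, 0.72 and -0.58 in the dcKO embryos, of which replicate 2 alone was above Ctrl, and the dcKO median was -0.41 without replicate 2, 0.66 without replicate 3, 0.20 without Ctrl replicate 2 and -0.41 after the correction. The 4 from Zfp991 to Zfp933 on chromosome 4 had medians of 0.32 and 0.82, which were 0.14 and 0.12 after the correction. The cKO median was 0.08 without cKO replicate 1 and 0.19 without Ctrl replicate 2. They had median ratios of 1.00, 1.22 and 0.04 in the dcKO embryos.

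Some members share so much sequence that many of their reads could come from more than 1 of them. Zfp966, Zfp967, Zfp968 and Zfp969 on chromosome 2 have the same coding sequence of 1455 bases, and Zfp965 and Zfp973 the same 954 bases. Zfp968 had 686, 496 and 638 reads in Ctrl, 453, 316 and 493 in cKO, and 670, 2037 and 281 in dcKO. Zfp969 had 695, 483 and 654 in Ctrl, 469, 317 and 486 in cKO, and 668, 2034 and 282 in dcKO. The near-equal counts of these genes cannot be assigned to either alone. Zfp967 had 167, 111 and 154 reads in Ctrl, 109, 110 and 172 in cKO, and 218, 758 and 36 in dcKO, and Zfp966 had 76, 65 and 81 in Ctrl and 614 and 35 in dcKO replicates 2 and 3. The cluster on chromosome 2 that holds Zfp968, Zfp965, Zfp969 and Zfp966 had medians of -0.57 in cKO and 0.30 in dcKO. Its median ratio was -0.17, 1.04 and -1.07 in the dcKO embryos, of which replicate 2 alone was above Ctrl, and the dcKO median was -0.55 without replicate 2, 0.69 without replicate 3 and -0.46 after the correction for GC content. Of stretches of 150 bases, the read length, 103 members shared none with another gene, 10 shared at least 50% and 3 shared all (Zfp965, Zfp967 and Zfp969). Zfp968 shared 98.6%, Zfp973 73.8% and Zfp966 68.9%, so part of the last 3 is their own. Without the 10, the member median was -0.22 in cKO, 0.37 in dcKO and 0.39 in dcKO against cKO. 20 members overlap another protein-coding gene, 12 on the same strand and 11 on the opposite strand.

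Beside the members, the 182 tested genes from Zfp1 to Zfp599 had median fold changes of -0.20 in cKO, 0.26 in dcKO and 0.32 in dcKO against cKO. The 57 tested Zbtb, Zkscan and Zscan genes had -0.11, 0.22 and 0.23, where upper-quartile factors brought the first to 0.00. For the genes from Zfp1 to Zfp599 these factors gave -0.09 in cKO. With TMM factors their cKO median of -0.20 was -0.13 without cKO replicate 2. The medians were -0.34, -0.07 and 0.24 for the former and -0.25, 0.04 and 0.28 for the latter after the correction for GC content, and without dcKO replicate 2 the dcKO medians were -0.00 and -0.05 and those of dcKO against cKO 0.13 and 0.10. The Zbtb, Zkscan and Zscan genes were at 0.14 and 0.11 in dcKO without dcKO replicates 1 and 3, and at -0.17 in cKO without cKO replicate 3.

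Of 21 genes for Trim28 and the other proteins of KRAB silencing, all were tested and edgeR and DESeq2 each called 0. Of all genes, edgeR called at most 0.0146% higher or lower in any comparison. DESeq2 called 4.94% higher and 3.87% lower in cKO, 4.66 and 3.79% in dcKO, and 0.0292 and 0.351% in dcKO against cKO. At an unadjusted edgeR p under 0.05, 2 were higher and 3 lower in cKO (15.3 and 11.7% of all genes), 2 higher and 4 lower in dcKO (18.0 and 11.2%), and 0 and 0 in dcKO against cKO (2.05 and 2.38%). Their median fold change was -0.18 in cKO, 0.01 in dcKO and 0.07 in dcKO against cKO, with 7, 11 and 14 of 21 above 0. The dcKO median was -0.25 after the correction for GC content and -0.25 without dcKO replicate 2, and -0.04 and -0.02 without cKO replicate 3 and Ctrl replicate 2. With upper-quartile factors the cKO median was -0.07 and that of dcKO against cKO -0.02, and the latter was 0.12, 0.01 and 0.16 without cKO replicate 1, dcKO replicate 2 and dcKO replicate 3. Trim28 was at 1187, 1160.3 and 1086 CPM in Ctrl, 876, 950.4 and 891 in cKO, and 518, 481 and 1131 in dcKO. The cKO embryos and dcKO replicates 1 and 2 were below Ctrl, and dcKO replicate 3 was within its range. The fold change came to -0.34 in cKO (edgeR adjusted p 0.492) and -0.69 in dcKO (edgeR adjusted p 0.158), and -1.20 without dcKO replicate 3, where edgeR called it. The correction brought it to -0.18 in cKO and -0.40 in dcKO. Dnmt1, the maintenance DNA methyltransferase, was at 515, 463 and 481 CPM in Ctrl, 356, 346 and 347 in cKO, and 247, 291 and 393 in dcKO. All mutants were below Ctrl, with fold changes of -0.48 and -0.65.

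Mphosph8, of the HUSH silencing complex, was at 54.3, 57 and 57.7 CPM in Ctrl, 104, 112 and 100.3 in cKO, and 149.9, 101 and 78.4 in dcKO. All mutants were above Ctrl, with fold changes of 0.90 in cKO (edgeR adjusted p 0.0542, DESeq2 0.00809) and 0.96 in dcKO (edgeR adjusted p 0.0507, DESeq2 0.00507), the latter 1.02 and 1.16 and called by edgeR without dcKO replicate 2 or 3. It was 0.67 without dcKO replicate 1, and the correction for GC content lowered it to 0.61 in cKO and 0.39 in dcKO. Smarcad1, a chromatin remodeller that binds Trim28, was at 118, 109 and 126 CPM in Ctrl, 191, 195 and 202 in cKO, and 289, 236 and 141 in dcKO. It was above Ctrl in all mutants and highest in dcKO replicate 1, with fold changes of 0.74 and 0.92, and edgeR called it in dcKO without replicate 3 at 1.16. Without dcKO replicate 1 the dcKO value was 0.68, and the correction lowered Smarcad1 to 0.47 in cKO and 0.29 in dcKO. The other genes at this unadjusted p, all lower, were Uhrf1 (-0.57 in cKO and -0.50 in dcKO, the latter -0.19 after the correction and -0.31 and -0.76 without dcKO replicates 1 and 3), Chaf1a (-0.42 and -0.64, the latter -0.98 without dcKO replicate 3) and Dnmt3a (-0.54 and -0.32), whose values were -0.35 in cKO and 0.19 in dcKO after the correction, and in dcKO -0.19 without dcKO replicate 1.

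Marker lists of cell types changed in level between the embryos too. Radial glia markers (8 of 8 tested, Vim the most abundant) summed to 3199, 2988 and 2795 CPM in Ctrl, 3104, 3300.1 and 2736 in cKO, and 2838, 3142 and 3159 in dcKO. These sums overlapped, but their genes did not move alike. Vim was above Ctrl in all cKO embryos (1768, 2029.9 and 1659 CPM, against at most 1496) and in dcKO replicates 1 and 3. Nes was below Ctrl in all mutants. Hes5 (6.75, 7.85 and 10.9 CPM, against at least 22), Hes1 and, only just, Pax6 were below Ctrl in all cKO embryos. DESeq2 called 1 of the 8 lower in cKO and 0 higher, beside 3.87 and 4.94% of all genes. Of the other lists, it called 2 of 4 dorsal telencephalon markers lower and 1 of 2 cortical hem markers higher in cKO. In dcKO it called 1 hem marker higher (4.66% of all genes) and 2 meninges, 1 endothelium and 2 blood markers lower (3.79%). In dcKO against cKO it called 1 endothelium and 2 blood markers lower (0.351%). Markers of intermediate progenitors (3 of 3, Eomes) summed to 451, 407 and 359, then 407, 355 and 337, then 321, 602 and 374 CPM in the same order of groups. Neuron markers (7 of 7, Tubb3) summed to 1485, 1307 and 1072, then 1093, 1177 and 733, then 534, 1173 and 1182 CPM. The neuron genes did not move alike either. Tubb3 (at most 407 CPM, against at least 481), Dcx and Bcl11b were below Ctrl in all cKO embryos. Neurod6 (255 and 234 CPM, against at most 126), Tbr1 and Stmn2 were above Ctrl in cKO replicates 1 and 2. In dcKO replicate 2, Dcx (385 CPM, against at most 185) was above Ctrl and Tubb3 (223 CPM) below it. dcKO replicate 2 had the highest sum of the progenitor markers and dcKO replicate 1 the lowest sum of the neuron markers.

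Cajal-Retzius markers (3 of 3 tested, Reln) summed to 133, 104 and 115.9 CPM in Ctrl, 159.8, 137 and 96.5 in cKO, and 77.7, 65.3 and 92.1 in dcKO. Cortical hem markers (2 of 3, Wnt5a) summed to 18.5, 21 and 7.53, then 23, 59.4 and 64.4, then 59.6, 24.1 and 46.6 CPM. Choroid plexus markers (0 of 3, Ttr, which was at 0 in all Ctrl embryos) summed to 1.3, 1.54 and 0.901, then 10.2, 28.3 and 53.6, then 79.7, 10.3 and 13.6 CPM. The sums of hem and choroid plexus markers were thus higher in all mutants than in Ctrl, but Wnt5a in cKO replicate 1 and Folr1 in dcKO replicate 2 lay within the Ctrl range. The Cajal-Retzius sum was below Ctrl in dcKO, carried by Reln, while Calb2 was at 12.8 CPM in dcKO replicate 3 and at most 7.72 in Ctrl. Subpallium markers (0 of 5, Dlx2) summed to 0.489, 0.198 and 0.216, then 0.182, 0 and 0.264, then 0, 8.4 and 0.331 CPM, with Gsx2 and Nkx2-1 at 0 in all embryos but dcKO replicate 2.

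Meninges markers (5 of 5 tested, Col1a2) summed to 379, 392 and 349 CPM in Ctrl, 221, 337 and 201 in cKO, and 153, 158 and 235 in dcKO. Endothelium markers (4 of 4, Cdh5) summed to 125, 148 and 159, then 155, 158 and 102, then 72.1, 76.1 and 73.8 CPM. Both sums were below Ctrl in every dcKO embryo, but not each gene in them. The meninges sum rests on Col1a1 and Col1a2, whereas Lum was at 43.2, 51 and 67.3 CPM in Ctrl and 55.7, 70.6 and 30.1 in dcKO, Foxc1 was at 15.5 in dcKO replicate 2 and at most 10.2 in Ctrl, and Dcn in dcKO replicate 1 was within the Ctrl range. Cldn5 in dcKO replicate 3 was also within its Ctrl range. Blood markers (5 of 5, Hbb-y) summed to 7249, 8637 and 6158, then 11593, 7609.5 and 10616, then 5693, 4163 and 4733 CPM. Microglia markers (4 of 5, Csf1r) summed to 35.7, 42.1 and 33.9, then 54.8, 76.3 and 35.8, then 20.8, 13.4 and 29.6 CPM. The blood and microglia sums were also lowest in dcKO, but Hbb-bh1 was at 230.1, 344 and 395 CPM in Ctrl and 389, 455 and 221 in dcKO, and Hbb-y, Alas2 and Ptprc in dcKO replicate 1 and Hba-a1 and C1qa in dcKO replicate 3 were not below Ctrl. The part of these cell types, and of mitochondrial reads, in the levels of the members was not tested.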

How the data were processed

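Raw counts of reads per gene, 1 library for each embryo, were deposited. By the submitters' notes, reads were checked with FastQC, trimmed with Cutadapt, aligned to mm39 with STAR and counted with featureCounts, whose versions, annotation and strand setting are not stated. Genes with more than 10 reads in all 9 embryos were fitted in 1 model with edgeR 4.0.16 (TMM, quasi-likelihood) in R 4.3.3, and p-values were adjusted by Benjamini-Hochberg over all 13680. SEs were derived from the F statistic. DESeq2 1.42.0 was run on the same genes, and limma 3.58.1 with voom sample weights was an alternative. The correction for GC content, chosen after seeing the data, used a loess curve (span 0.3) of each library on the GC content of coding sequences as offsets. It removes any trend with coding GC by construction, whether from library preparation or from a change in the RNA. The closing section gives the effect of this and the other alternatives. The scripts were tested on simulated data.

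Members, named genes and lists were chosen with earlier results of these data known. Named genes were the 8 members with the highest mean of both fold changes against Ctrl among those with all 6 mutants above Ctrl, the 5 with the lowest such mean, the 5 with the highest Ctrl level per kb, the 3 with the smallest p in dcKO against cKO, 13 with a known role and any member edgeR called, which were 0. The 21 corepressor genes and the cell type markers were listed by hand. GC3, motifs, exon lengths and positions came from the longest coding isoform or the exons in GENCODE M21 on GRCm38, joined by gene identifier. Tables and figures used Python 3.11.15 with NumPy 2.4.6, pandas 2.3.3 and SciPy 1.17.1.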

Additional observations from a re-analysis of the deposited data

How the results depend on the processing

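Settings that changed the counts of members called by edgeR are given as higher and lower. In cKO against Ctrl, with 0 and 0 as reported, with the percent of all genes called in brackets, they were 3 and 5 with DESeq2 (4.94 and 3.87), 1 and 1 with upper-quartile factors (2.42 and 0.680), 4 and 5 with voom and sample weights (6.996 and 6.66), 0 and 4 with no filter on reads (1.44 and 1.59), 3 and 6 with only the 6 embryos compared (6.91 and 5.94), and 2 and 3 at an adjusted p under 0.1 (4.60 and 2.94). Among alternatives chosen after seeing the data they were 3 and 6 with DESeq2 on 6 embryos (6.80 and 6.06), 2 and 4 with DESeq2 and a replicate block (4.18 and 3.30), 1 and 7 after the correction for GC content (2.95 and 2.13), and 0 and 2 with only genes that have a coding GC value (1.74 and 1.10). Without 1 embryo they ranged from 0 to 2 and from 0 to 6, and were 1 and 3 without dcKO replicate 1 (3.79 and 2.93), 2 and 4 without dcKO replicate 2 (5.62 and 2.72) and 2 and 6 without dcKO replicate 3 (5.28 and 5.49). DESeq2 counts without 1 embryo ranged from 0 to 3 (2.59 to 6.36) and from 2 to 7 (1.13 to 6.02), with 0 and 2 without Ctrl replicate 1, 2 lower without Ctrl replicate 2, 3 lower with any 1 cKO embryo left out, and 1 higher without cKO replicate 2 or 3.

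In dcKO against Ctrl, also 0 and 0 as reported, the counts, with the same shares, were 10 and 2 with DESeq2 (4.66 and 3.79), 22 and 15 with voom (10.9 and 15.9), 2 and 1 with no filter (1.16 and 1.41), and 10 and 1 at an adjusted p under 0.1 (4.91 and 2.88). With alternatives chosen after seeing the data they were 9 and 1 with DESeq2 on 6 embryos (2.82 and 1.94), 10 and 2 with DESeq2 and a replicate block (3.44 and 4.08), 3 and 0 after the correction for GC content (1.59 and 0.786), and 6 and 0 with only genes that have a coding GC value (2.42 and 0.877). Without 1 embryo they ranged from 0 to 34 and from 0 to 10, at 8 and 2 without dcKO replicate 2 (7.16 and 2.56) and 34 and 10 without dcKO replicate 3 (8.46 and 15.3). DESeq2 counts ranged from 6 to 32 (1.64 to 8.21) and from 0 to 10 (1.02 to 15.9). In dcKO against cKO the counts were 0 and 0 except without dcKO replicate 3, where edgeR gave 32 and 2 (2.58 and 6.45) and DESeq2 33 and 2 (2.99 and 7.50), so that both ranged from 0. Replicate numbers did not pair the embryos, and edgeR with a replicate block gave 0 in each comparison and member medians of -0.22 in cKO and 0.34 in dcKO. Where a count changed, the cause was not tested.

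The member median in cKO was -0.12 with upper-quartile factors, -0.15 with no filter, and -0.26 to -0.18 without 1 embryo. In dcKO it was -0.09 after the correction for GC content and 0.05 to 0.64 without 1 embryo, and in dcKO against cKO 0.16 to 0.67. For members with the KRAB pattern it was 0.06 in cKO with upper-quartile factors, 0.01 with no filter, and -0.12 in dcKO after the correction, and without 1 embryo it ranged from -0.18 to -0.03 in cKO, 0.15 to 0.78 in dcKO and 0.21 to 0.87 in dcKO against cKO. The correction made the dcKO fold change smaller in 20 of 32 named members, larger in 5 and of the other sign in 7. Without 1 embryo, members with all dcKO embryos above Ctrl ranged from 27 to 72 and below it from 10 to 29. The shares of all genes ranged from 16.8 to 32.3% and from 11.9 to 30.7%. Leaving out an embryo can only raise such counts, for members and for all genes. The count below Ctrl was 20 without Ctrl replicate 3 (16.8% of all genes), 29 without dcKO replicate 2 (20.1%) and 23 without dcKO replicate 3 (30.7%). Those above cKO ranged from 13 to 84 (3.51 to 25.4% of all genes) and those below cKO from 0 to 13 (4.52 to 27.0%). The count below cKO was 4, 3 and 13 without dcKO replicates 1, 2 and 3 (8.86, 6.64 and 27.0% of all genes). It was 1 without cKO replicate 2 (5.07%) or 3 (7.003%), and 1 with upper-quartile factors.

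Of 85 fold changes of named genes followed under 1615 alternatives, 12 changed sign in 16 alternatives, and 39 gained a call in 143. After the correction for GC content, dcKO values turned to 0.15 for Zfp668, -0.23 for Zfp706, -0.46 for Zfp869, 0.37 for Zfp618, -0.29 for Zfp638, 0.22 for Zfp746, -0.24 for Zfp932 and 0.19 for Dnmt3a, and cKO values to -0.03 for Zfp644 and -0.17 for Zfp800. Zfp638 in cKO was 0.05 with upper-quartile factors. Without 1 embryo the ranges that crossed 0 were -0.23 to 0.42 for Zfp706, -0.89 to 0.01 for Zfp664, -0.32 to 0.45 for Zfp869 and -0.40 to 0.04 for Zfp618 in dcKO, and -0.11 to 0.00 for Zfp638 in cKO. The cause was not tested.

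With 3 embryos a group and dcKO embryos that differ in Cnot3, Trp53 and the members, the dcKO medians do not describe each embryo. The median member ratio was 0.35, 0.78 and -0.25 in the dcKO embryos. Members with few reads, such as Zfp641, carry the largest counting error. Genotype, Cre activity and tissue composition cannot be told apart in bulk cortex, and these 9 libraries measure neither synthesis nor decay of RNA. Positions and coding sequences come from another build and annotation than the counts.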
